A study of Homo sapiens with 4 samples.

Results

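The genes examined here encode the factors that carry and deposit histones and those that make and protect histone mRNA: CHAF1A, CHAF1B, ASF1A, ASF1B, NASP, HAT1, HIRA, SLBP, NPAT and CASP8AP2. They were grouped by function, with earlier results of these data known, and all 10 were measured, among 18417 genes that had a probe set annotated to a single symbol. Each was read by 1 such probe set, so no choice between probe sets was needed. The cells were MiaPaCa2, a line from a human pancreatic ductal adenocarcinoma. Each group held 2 arrays that the series calls biological replicates: cultures given vehicle for 24 h, and cultures given LY101-4B, which the series presents as an E2F inhibitor, at 50 µM for 24 h. The treatment protocol of the same samples names LY101-4D at 25 µM instead, and the titles and agent labels were followed here. All arrays came from the same cell line, grown in the same medium with fetal calf serum.

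New DNA is packed into nucleosomes as it is copied, and the supply of histones is tied to S phase. CAF-1 is docked at the fork by PCNA and places new H3-H4 onto DNA; ASF1 proteins hand H3-H4 to it, NASP keeps a soluble store of H3-H4, and HAT1 acetylates new H4. HIRA places the variant H3.3 outside of replication. Replication-dependent histone mRNAs end in a stem-loop in place of a poly(A) tail: NPAT drives their transcription, FLASH (the product of CASP8AP2) brings in the processing machinery, and SLBP binds the stem-loop. Many genes active at the start of S phase are E2F targets, and CAF-1 and ASF1B are commonly counted among proliferation-linked genes.

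Transcripts of 8 of the 10 genes fell with LY101-4B, 0 rose and 2, ASF1A and HIRA, did not pass (limma adjusted p under 0.05 over all 21214 annotated probe sets). Of all tested probe sets 10.5% were called lower and 9.1% higher, 19.6% in all. At an unadjusted limma p under 0.05, 9 of the 10 genes were lower and 0 higher, beside 3173 lower and 2758 higher of 18417 genes. The median log2 difference of the 10 genes was -0.76, beside 0.0047 over all genes. Falls of at least 2-fold were called for 4 of the 10, CHAF1B, CHAF1A, ASF1B and NASP, and for 1.62% of tested probe sets. The values of the 2 groups did not overlap for any of the 10, in the lower direction for 9 of them. Such separation in the lower direction held for 29.5% of tested probe sets, and in the higher direction for 28.5%. The arrays read RNA from whole cultures, so fewer cells in S phase and less of a transcript per cell cannot be told apart. Without vehicle replicate 1 the count of genes called lower was 5, and without vehicle replicate 2 it was 4; CHAF1A, CHAF1B, ASF1B and NASP passed under each of the 11 other settings run. A fit without 1 array leaves its group with a single array, assumed to vary like the other group, so a call lost there need not mean a smaller difference.

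**Figure D1:**
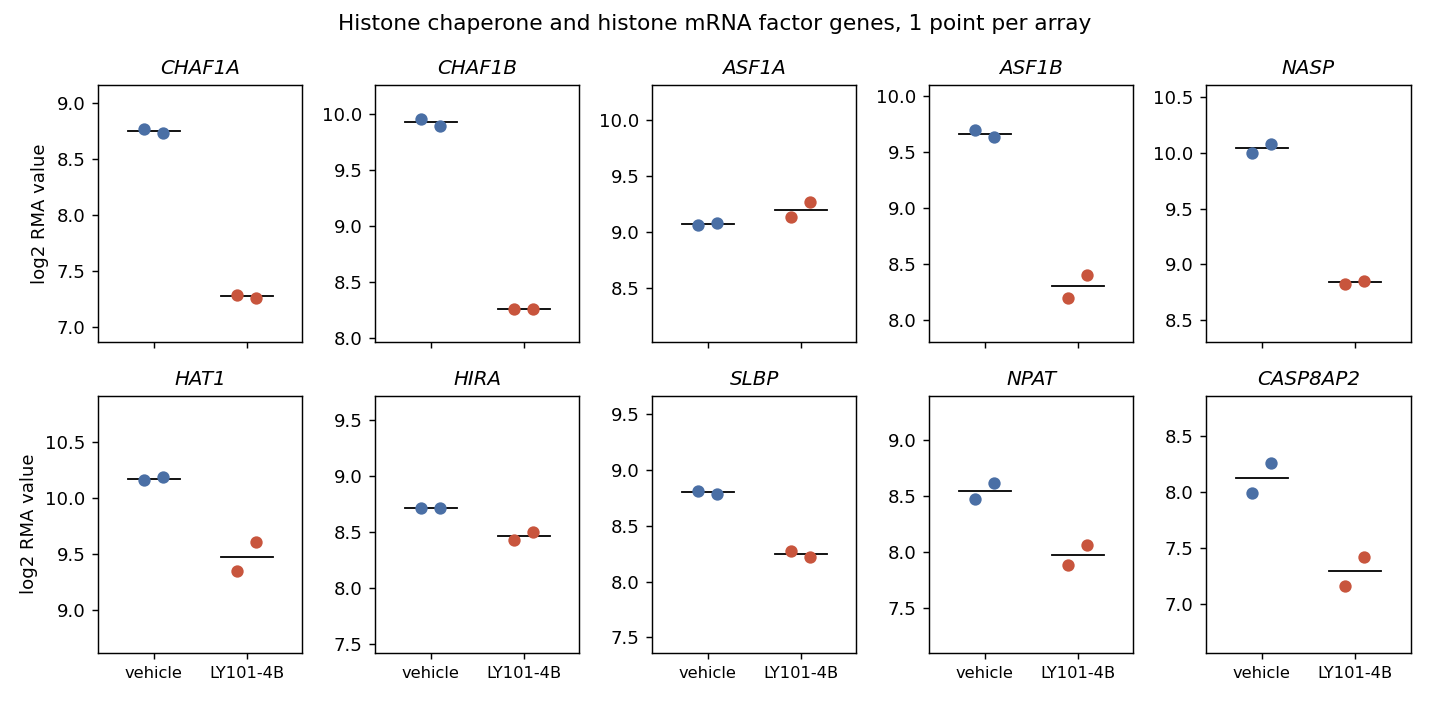
Log2 RMA values of the 10 genes on each of the 4 arrays, with vehicle in blue and LY101-4B in red; bars are group means and every panel spans the same log2 range. The LY101-4B points lie below both vehicle points in 9 panels, and for ASF1A they lie above them by a gap of 0.05.

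As a check on the material, the arrays correlated within groups at r = 0.997 (vehicle) and 0.994 (LY101-4B) and between groups at 0.978 to 0.981 over the tested probe sets. The keratins KRT8 and KRT18 and the mesenchymal filament VIM, all usual in this line, had vehicle means of 12.8, 12.9 and 12.6 log2 units, while the epithelial adhesion genes EPCAM and CDH1 read 3.94 and 4.49. With LY101-4B, KRT8 was lower by 0.84 and KRT18 by 0.57 (limma adjusted p 0.0037 and 0.011). The other epithelial-list genes did not pass: KRT19, with a vehicle mean of 9.22, gave -0.09, VIM -0.14, EPCAM -0.06 and CDH1 0.09. Whether the keratin falls bear on the results below was not tested. The 11 measured markers of acinar, endocrine, fibroblast, leukocyte and endothelial cells had vehicle means from 3.46 to 7.98, and 1 of them, COL3A1, was called, lower, by 0.54. No detection calls were used here, so no gene was called absent.

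The largest falls among the 10 genes were those of CHAF1B and CHAF1A, subunits of CAF-1. CHAF1B, the middle subunit, read 9.96 and 9.90 log2 units on the vehicle arrays and 8.27 and 8.26 on the LY101-4B arrays. It was lower by 3.17-fold (-1.67 ± 0.09, SE; limma adjusted p 0.0006), and 0.326% of measured genes fell further. CHAF1A, the large subunit that binds PCNA, read 8.77 and 8.73 with vehicle and 7.29 and 7.26 with LY101-4B. Both genes thus had arrays of a group within 0.1 log2 units of each other, and the groups stood apart by 1.63 for CHAF1B and 1.44 for CHAF1A. CHAF1A was lower by 2.78-fold (-1.47 ± 0.08, SE; limma adjusted p 0.0007). Within each array, CHAF1B minus CHAF1A was 1.20 and 1.17 with vehicle and 0.98 and 1.01 with LY101-4B. The fall of CHAF1B was thus larger by 0.19 log2 units. The exact 2-sided permutation test gave p = 0.333, the smallest that 2 arrays against 2 allow. The third CAF-1 subunit, RBBP4, which also serves other complexes, was lower by 1.42-fold (-0.51 ± 0.09, SE; limma adjusted p 0.012). That call was lost without vehicle replicate 1 (adjusted p 0.11) and without vehicle replicate 2 (0.0838).

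The start regions of these genes were read from RefSeq (build GRCh38.p14; 300-base windows from 250 bases before to 50 after the start) because the series concerns E2F. The letters searched on both strands were TTTCGCGC, TTTGGCGC, TTCCCGCC and TTGGCGCC, some of which overlap each other, and, for the cell cycle homology element, TTTGAA and TTCGAA. At least 1 of the 4 E2F strings was in the windows of 3 of the 10 genes, CHAF1A, CASP8AP2 and HIRA. Such a string was in 6.38% of the 20109 windows of measured genes, a share not matched for base composition. The windows of CHAF1A, HIRA and CASP8AP2 were 70.3%, 77.0% and 58.3% G or C, beside a median of 62.7% over windows of measured genes. HIRA did not pass the test, and 6 of the 8 called genes had none of the E2F strings. A match is only a match of letters, and its absence says nothing about binding of a factor. With TTTCCCGC and TTTGCCGC added after the data were seen, the same 3 genes matched, beside 8.0% of windows. The CAF-1 stretches are shown to compare a match with its absence: CHAF1A at chr19:4402611-4402640 (plus strand, to the first transcribed base) and CHAF1B at chr21:36385292-36385391 (plus strand, the 100 bases before the start), with matched letters in capitals.
CHAF1A: cggactgcgggggtcgccgcggTTCCCGCC
CHAF1B: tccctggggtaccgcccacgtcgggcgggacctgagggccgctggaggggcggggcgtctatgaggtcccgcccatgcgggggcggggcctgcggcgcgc
In CHAF1A the string TTCCCGCC runs from 7 bases before the start to the first transcribed base. CHAF1B, which fell furthest of the 10, held none of the exact strings in its window. Its printed stretch does hold gtcccgcc, 1 letter from TTCCCGCC, and the reverse complement ggcgggac. Near matches were not searched in any gene.

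Of the ASF1 paralogs, which both hand over H3-H4, ASF1B fell and ASF1A did not pass. ASF1B read 9.70 and 9.63 log2 units with vehicle and 8.20 and 8.40 with LY101-4B. It was lower by 2.58-fold (-1.36 ± 0.10, SE; limma adjusted p 0.0013), with the groups 1.23 apart. ASF1A read 9.06 and 9.08 with vehicle and 9.13 and 9.27 with LY101-4B. Its groups were separated by 0.05, less than the 0.14 between its own LY101-4B arrays, and its difference of 0.13 ± 0.09 did not pass (SE; 95% interval -0.10 to 0.36; limma adjusted p 0.413). That interval leaves out a fall of the size seen for ASF1B. Within each array, ASF1B minus ASF1A was 0.64 and 0.55 with vehicle and -0.93 and -0.86 with LY101-4B. ASF1B thus moved by -1.49 log2 units relative to ASF1A, a 2.82-fold shift, against an SD within groups of 0.06 and 0.05 (n = 2 each). The exact 2-sided permutation p was 0.333, again the smallest possible. The 100 bases before each start are shown because 1 paralog was called and the other was not: ASF1B at chr19:14136590-14136689 (minus strand) and ASF1A at chr6:118894052-118894151 (plus strand).
ASF1B: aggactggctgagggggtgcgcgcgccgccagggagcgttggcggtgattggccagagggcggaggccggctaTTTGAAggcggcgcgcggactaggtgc
ASF1A: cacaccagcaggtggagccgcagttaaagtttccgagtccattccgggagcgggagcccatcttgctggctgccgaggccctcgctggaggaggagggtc
The capitals in ASF1B mark TTTGAA, from 27 to 22 bases before the start. ASF1B was the only one of the 10 genes with either cell cycle homology string in its window. TTTGAA was in 12.3% and TTCGAA in 1.58% of windows of measured genes, so a match in 1 of 10 genes is near the TTTGAA share. Neither paralog held an E2F string.

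**Figure D2:**
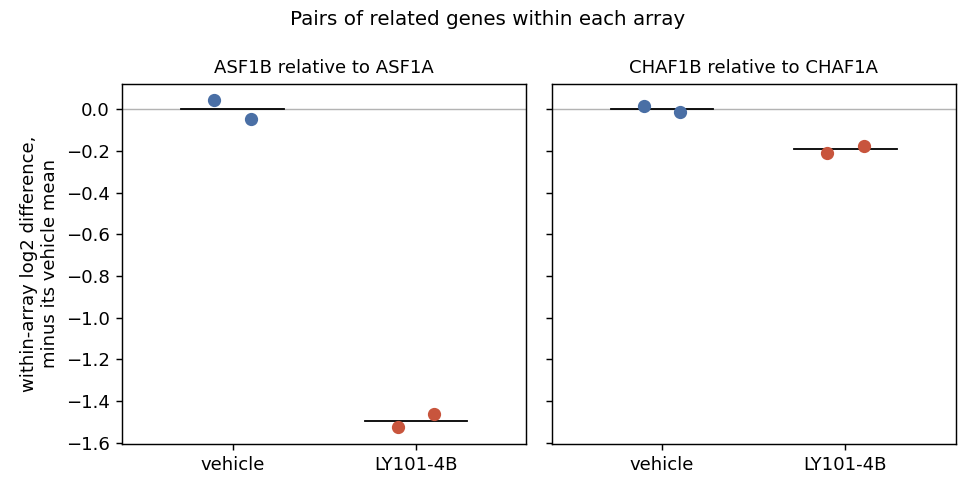
Within-array log2 difference between the genes of a pair, minus its mean on the vehicle arrays; points are arrays (vehicle in blue, LY101-4B in red) and bars are group means. ASF1B shifted by -1.49 relative to ASF1A, and CHAF1B by -0.19 relative to CHAF1A.

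The genes that store and mark new H3-H4 also fell. NASP read 10.00 and 10.08 log2 units with vehicle and 8.83 and 8.85 with LY101-4B. It was lower by 2.29-fold (-1.20 ± 0.09, SE; limma adjusted p 0.0011). HAT1 read 10.16 and 10.19 with vehicle and 9.34 and 9.61 with LY101-4B, so its LY101-4B arrays differed more from each other than its vehicle arrays did. Its fall was smaller, 1.62-fold (-0.70 ± 0.12, SE; limma adjusted p 0.012), and the call was lost without vehicle replicate 1 (adjusted p 0.0602) or vehicle replicate 2 (0.0661). RBBP7, the partner subunit of HAT1, was lower by 1.51-fold (-0.59 ± 0.08, SE; limma adjusted p 0.0073), also not past the threshold without either vehicle array (0.064 and 0.0619).

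HIRA, the H3.3 chaperone that acts outside replication, did not pass the test. It read 8.71 and 8.72 log2 units with vehicle and 8.43 and 8.50 with LY101-4B. Both LY101-4B arrays were below both vehicle arrays, by a gap of 0.21, but the difference of -0.25 ± 0.09 did not pass (SE; 95% interval -0.46 to -0.04; limma adjusted p 0.105). It passed when only the brighter 50% of probe sets were tested (adjusted p 0.0339). The partners of HIRA were mixed: CABIN1 was lower by 0.37 (limma adjusted p 0.033), UBN1 gave -0.27 and did not pass (0.0914, or 0.0289 with the brighter 50% of probe sets), and UBN2 was higher by 0.43 (0.029). UBN2 read 7.22 and 7.27 with vehicle and 7.60 and 7.75 with LY101-4B. The calls of both CABIN1 and UBN2 were lost when all rows of the table were tested (adjusted p 0.0854 and 0.0819), without either vehicle array (0.142 to 0.237) and without LY101-4B replicate 2 (0.0554 and 0.0624), and that of CABIN1 also without LY101-4B replicate 1 (0.0738). The 100 bases before the HIRA start, at chr22:19431734-19431833 (minus strand), are shown because they hold E2F letters although the gene did not pass.
HIRA: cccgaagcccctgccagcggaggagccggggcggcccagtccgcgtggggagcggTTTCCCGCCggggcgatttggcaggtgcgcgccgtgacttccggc
The capitals span TTTCCCGC and TTCCCGCC, which overlap, from 45 to 37 bases before the start.

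The 3 genes of histone mRNA fell by 1.47-fold to 1.78-fold. CASP8AP2, which encodes the processing scaffold FLASH, read 7.99 and 8.26 log2 units with vehicle and 7.16 and 7.42 with LY101-4B. Its arrays within a group differed by more than those of any other of the 10 genes on the vehicle side, and it was lower by 1.78-fold (-0.83 ± 0.14, SE; limma adjusted p 0.012). SLBP, the stem-loop binding protein, read 8.81 and 8.79 with vehicle and 8.27 and 8.22 with LY101-4B, and was lower by 1.47-fold (-0.56 ± 0.09, SE; limma adjusted p 0.0091). NPAT, the coactivator of the histone gene clusters, read 8.47 and 8.61 with vehicle and 7.88 and 8.06 with LY101-4B. It was lower by 1.48-fold (-0.57 ± 0.11, SE; limma adjusted p 0.018). These calls were the least firm of the 8, with those of HAT1. Without vehicle replicate 2 all 3 missed the threshold (adjusted p 0.0598 for CASP8AP2, 0.0711 for SLBP, 0.124 for NPAT), and SLBP (0.0819) and NPAT (0.0643) did so without vehicle replicate 1. NPAT was also lost without LY101-4B replicate 1 (0.0564), and NPAT (0.0619) and CASP8AP2 (0.0509) when all rows were tested. CASP8AP2 is shown from 160 to 81 bases before its start, at chr6:89829720-89829799 (plus strand), since it held more of the searched strings than any other of the 10 genes.
CASP8AP2: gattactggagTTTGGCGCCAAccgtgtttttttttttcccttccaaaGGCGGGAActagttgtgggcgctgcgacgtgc
The first capitals cover TTTGGCGC and TTGGCGCC, the latter on both strands, and the second cover TTCCCGCC on the opposite strand.

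**Figure D3:**
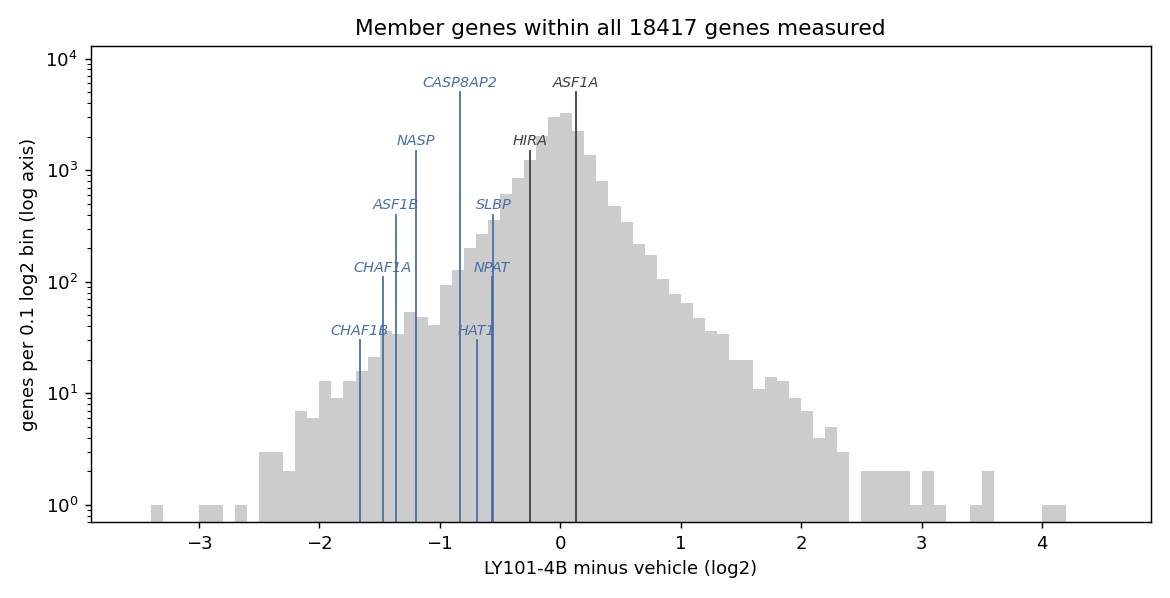
Histogram of the LY101-4B minus vehicle log2 difference over 18417 genes (bins of 0.1, count on a log axis), with a line at each of the 10 genes; blue lines are genes called lower and dark lines are ASF1A and HIRA. CHAF1B, CHAF1A, ASF1B and NASP lie below -1, and ASF1A at 0.13 lies in the bulk of genes.

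Other histone chaperones and their regulators fell in 14 of 26 cases (53.8%, beside 10.7% of all genes) and rose in 1, UBN2, while 11 did not pass. Their median was -0.41. The count of falls was 7 without vehicle replicate 1 and 7 without vehicle replicate 2. The largest falls were at the replication fork. MCM2, the helicase subunit that binds parental H3-H4, read 10.15 and 10.18 log2 units with vehicle and 7.92 and 8.14 with LY101-4B, a 4.39-fold fall (limma adjusted p 0.0005). PCNA, the clamp that docks CAF-1, read 11.15 and 11.20 with vehicle and 9.33 and 9.30 with LY101-4B, a 3.63-fold fall (limma adjusted p 0.0004). MMS22L, which read 8.38 and 8.58 with vehicle, was lower by 2.74-fold (limma adjusted p 0.0028). Its partner TONSL, which recognises newly made H4, gave -0.23 ± 0.10 and did not pass (SE, limma adjusted p 0.181). TONSL had lower values, 6.64 and 6.72 with vehicle and 6.53 and 6.37 with LY101-4B. Among the other listed genes, HJURP, the chaperone of centromeric CENP-A, was lower by 1.86-fold (limma adjusted p 0.0022). The FACT subunit SUPT16H was lower by 1.75-fold (limma adjusted p 0.0029). The importin IPO4, which carries H3-H4 into the nucleus, was lower by 1.74-fold (limma adjusted p 0.0056). The ASF1 kinases TLK1 and TLK2 gave 0.25 and 0.36 and did not pass (limma adjusted p 0.106 and 0.0523). Both passed as higher under cyclic loess (0.0427 and 0.0235), with the brighter 50% of probe sets (0.0352 and 0.0159) and with an intensity trend (0.0432 and 0.0127), and TLK2 passed with the replicate number as a block (0.046). RBBP4, RBBP7, UBN1, CABIN1, TONSL, TLK1 and TLK2 are given as partners of genes described here, a choice made with their values in view.

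Of 17 measured partners in histone mRNA metabolism and histone gene transcription, 8 fell (47.1%, beside 10.7% of all genes), 0 rose and 9 did not pass. At an unadjusted limma p under 0.05, 9 were lower and 3 higher, beside 3173 and 2758 of 18417 genes. Those 3, named with their values in view, were MIF4GD (0.39), HINFP (0.38) and TUT7 (0.31), with limma adjusted p 0.0504, 0.0658 and 0.119. MIF4GD and HINFP passed as higher under cyclic loess (0.0469 and 0.0347) and with an intensity trend (0.0339 and 0.0302). All 3 passed with the brighter 50% of probe sets (0.0157, 0.0225 and 0.0484). The median of the partners was -0.24. Without vehicle replicate 1 the count of falls was 4. Cyclin E and its kinase, which phosphorylate NPAT, were among the falls: CCNE2 by 2.94-fold, CDK2 by 2.84-fold and CCNE1 by 1.63-fold (limma adjusted p 0.0032, 0.00096 and 0.0135). CDK2 read 9.78 and 9.81 log2 units with vehicle and 8.19 and 8.39 with LY101-4B. The CCNE1 call was lost when all rows were tested (adjusted p 0.0534) and without either vehicle array (0.0684 and 0.065). ERI1, the exonuclease that trims the end of histone mRNA, was lower by 2.22-fold, and CSTF2, a subunit of the histone cleavage complex, by 1.94-fold (limma adjusted p 0.0047 and 0.0048). UPF1, the helicase that starts histone mRNA decay, was lower by 1.67-fold (limma adjusted p 0.0094), not past the threshold without vehicle replicate 1 (0.0642). The U7 snRNP genes LSM10 and LSM11, specific to histone pre-mRNA, gave -0.24 and -0.17 and did not pass (limma adjusted p 0.126 and 0.259). LSM10 passed with the brighter 50% of probe sets (0.0454). LSM11 was not among that 50%, and read 6.36 and 6.43 with vehicle and 6.24 and 6.22 with LY101-4B. Both U7 genes were picked with their values in view.

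**Figure D4:**
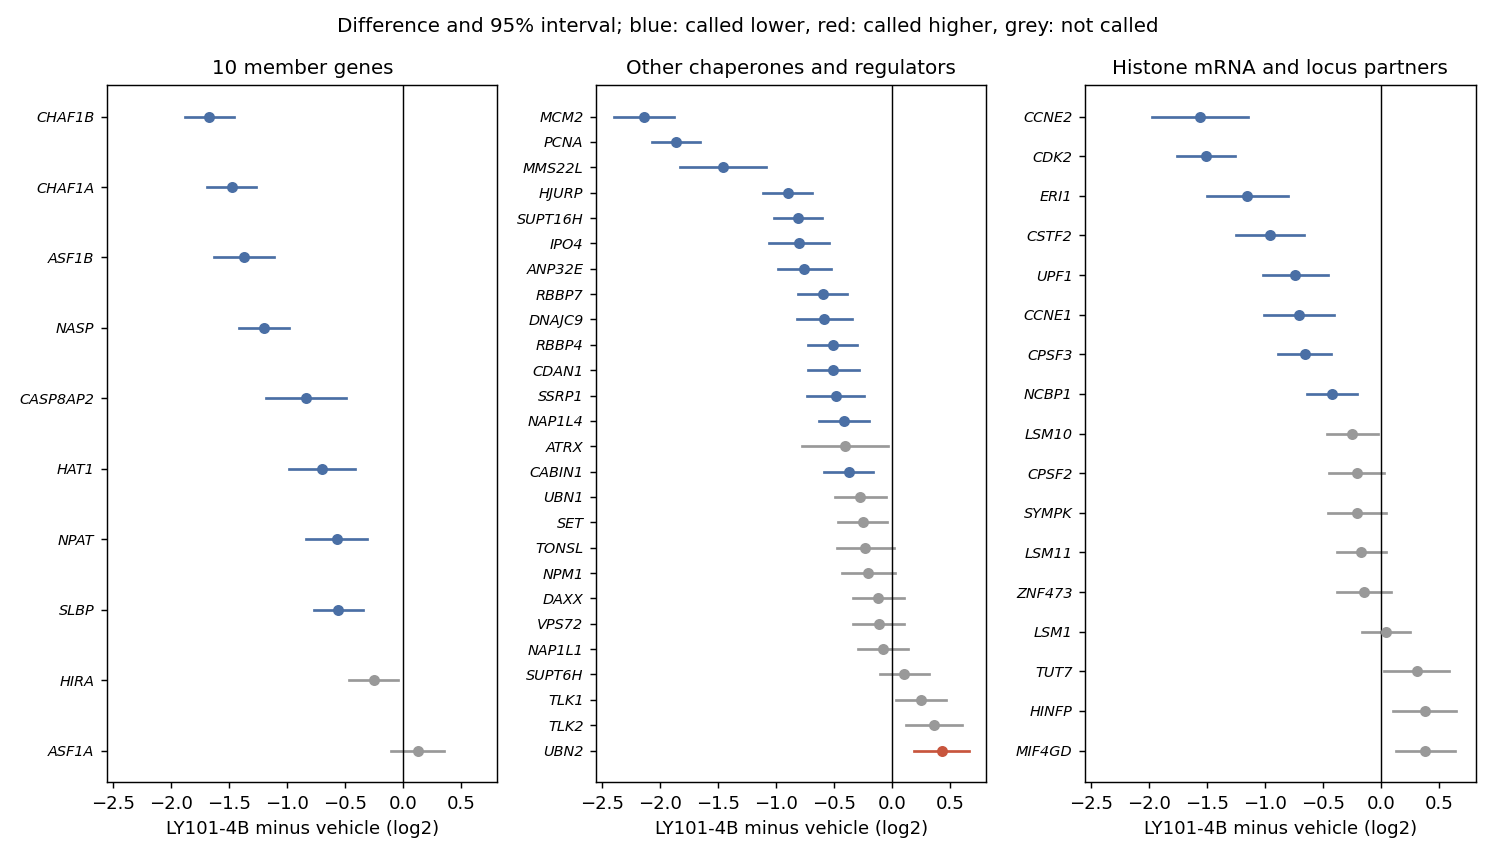
LY101-4B minus vehicle log2 difference with its 95% interval from the limma fit, for the 10 genes, 26 other chaperones and regulators, and 17 histone mRNA partners; blue is called lower, red called higher and grey not called. Falls make up 8, 14 and 8 of the genes, and UBN2 is the only gene in red.

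Among the variant histones, 5 of 6 measured genes fell (83.3%, beside 10.7% of all genes) and 0 rose. By an unadjusted limma p under 0.05, 6 were lower and 0 higher, beside 3173 and 2758 of 18417 genes. All 5 that fell encode forms of H2A, whereas HIRA deposits a form of H3. The falls were those of H2AX (1.67-fold), the H2A.Z genes H2AZ1 (1.52-fold) and H2AZ2 (1.43-fold), and MACROH2A2 (1.48-fold) and MACROH2A1 (1.36-fold), with limma adjusted p from 0.0040 to 0.0368. Of these calls only that of H2AX passed under every setting run. H3-3B, a gene of the H3.3 that HIRA deposits, gave -0.36 ± 0.10 and did not pass (SE; limma adjusted p 0.0579), but passed with arrays centred on their medians (0.0375), the brighter 50% of probe sets (0.0184), an intensity trend (0.0071) and without LY101-4B replicate 2 (0.0361). It was picked with its value in view. The clustered histone genes taken by symbol, whose near-identical copies make single members uncertain, had 35 of 56 lower (62.5%) and 2 higher. Their median was -1.05, beside 0.0047 and 10.7% called lower over all genes. This list was not counted under the other settings.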

How the data were processed

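Human Gene 1.0 ST arrays were hybridised with RNA from 4 cultures. Per the labels' protocols, the RNA was labelled with a FlashTag Biotin HSR kit, a kind made for small RNA; if that entry is right for these arrays, what the values measure is uncertain. The deposited table holds log2 values per probe set, credited to RMA per the submitters' processing notes; its version and any filter were not stated there. RMA quantile-normalises arrays, so a difference is measured against the general level of each array. All columns were mapped (0 unmapped). Of 33297 rows, 19460 had 1 symbol, 1754 several and 12083 none in the platform annotation; the first 2 classes were tested. Symbols were checked against RefSeq GRCh38.p14 (0 updated). For genes with several single-symbol probe sets the brightest was used.

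A 2-group model was fitted with limma 3.58.1 in R 4.3.3 (2 residual and 3.75 prior degrees of freedom), 2-sided, with Benjamini-Hochberg adjustment over 21214 probe sets at 0.05, and checked on simulated data. Precision is limited by the number of arrays, and p-values measure only the spread between these samples. Values are LY101-4B minus vehicle. The 10 genes and the lists were chosen with earlier results of these data known. Genes named were all 10, up to 6 called genes per list with the largest difference, and called genes that moved against their list; others are marked. POU2F1 and SRRT were not analysed here, nor singly H3-3A and CENPA, whose probe sets carry several symbols. All 10 genes matched a promoter window. Alternatives were cyclic loess, median centring, the brighter 50%, all rows, intensity trend, robust prior, replicate block and leaving out each array.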

Additional observations from a re-analysis of the deposited data

How the results depend on the processing

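All 10 genes kept their direction under each of 11 alternative settings, and 0 were called higher under any. Leaving out 1 array in turn gave 4 to 8 of them called lower (median difference -0.90 to -0.64), 7 to 14 other chaperones lower and 0 to 1 higher, 4 to 8 histone mRNA partners lower and 0 to 1 higher, and 1610 to 4366 probe sets called (811 to 2467 lower, 755 to 1899 higher). In these fits 1 group has a single array and the spread comes from the other group alone. Testing all rows gave 2433 probe sets (1271 lower, 1162 higher), 6 of the 10 genes lower and 0 other chaperones higher. The median difference of the 10 genes was -0.72 under cyclic loess and -0.82 with median centring. Other chaperones called higher numbered 3 under cyclic loess, 3 with the brighter 50% of probe sets and 3 with an intensity trend; histone mRNA partners called higher numbered 2, 3 and 2 there. NAP1L1 (0.017 under cyclic loess) and LSM1 (-0.0074 with median centring) changed sign; neither was called. With the replicate number as a block, 8 of the 10 genes were lower and 2 other chaperones were higher. The labels share numbers 1 and 2 but name no shared batch. The differences between replicates 1 and 2 correlated at r = 0.116 between the groups over all tested probe sets, which with 2 pairs does not show pairing. The cause of these changes was not tested. No detection calls were used, so values near the low end may be background.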

Other observations

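The start of NPAT lies 429 bases from that of ATM, the DNA damage kinase gene, which is read in the opposite direction (RefSeq GRCh38.p14 windows). This neighbour was looked at after the values were seen. ATM read 8.41 and 8.63 log2 units with vehicle and 8.92 and 9.19 with LY101-4B, a 1.45-fold rise (0.54 ± 0.13, SE; limma adjusted p 0.041), while NPAT fell by 0.57. The members of this divergent pair thus moved in opposite directions on both LY101-4B arrays. The ATM call was lost with median centring (adjusted p 0.0533), when all rows were tested (0.111) and without either vehicle array (0.216 and 0.0755) or LY101-4B replicate 2 (0.101).

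Within 1000 bases of the starts of the 10 genes, 1 other measured gene lay in divergent orientation. This was MRPL40, a mitochondrial ribosomal protein gene 812 bases from HIRA. It was lower by 0.37 (limma adjusted p 0.038), beside -0.25 for HIRA, and that call was lost when all rows were tested (adjusted p 0.0953) and without either vehicle array (0.203 and 0.229) or LY101-4B replicate 1 (0.0896).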
